A study of Mus musculus with 84 samples.

Results

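The livers of 12 diet-induced obese (DIO) mice, 6 given BI 456906 and 6 given semaglutide at the same daily dose of 20 nmol/kg, were compared by RNA sequencing. These 12 libraries were taken from the 84 of the study by their labels for tissue, compound and dose, and no measured value was used to choose them. All animals were male C57BL/6J mice made obese with a diet holding 60% of its energy as fat, 22 weeks old at the start, and dosed subcutaneously once a day for 30 days. The 6 libraries of mice on vehicle and the same diet served as the untreated background, and the epididymal white adipose tissue (eWAT) of the same dose groups, again with 6 libraries per compound, was used to ask whether a liver difference was matched in a second tissue. The study kept 11 mice per group, of which 6 were sequenced, and the labels do not tie a liver to an eWAT library.

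BI 456906 is an acylated peptide built on the glucagon sequence that activates both the glucagon receptor (GCGR) and the glucagon-like peptide-1 receptor (GLP-1R), whereas semaglutide is an acylated peptide built on GLP-1 that activates the GLP-1R. The GCGR is abundant on hepatocytes and raises cAMP there, and glucagon is known for switching on gluconeogenesis, amino acid breakdown and ureagenesis and for holding back glycolysis. The GLP-1R is expressed mainly in islets and brain, so that a GLP-1R agonist reaches the liver largely through food intake, body weight and islet hormones. An equal molar dose is not an equal exposure, and plasma levels of the peptides were not analysed here.

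Between 21676902 and 46416083 reads were counted on genes in these 12 libraries, the fewest in semaglutide library 77. Within each group every pair of libraries differed beyond sampling noise, with a lowest chi-square per degree of freedom of 14.6 for semaglutide and 30.0 for BI 456906, so none was counted as a duplicate. BI 456906 library 65 stood apart from its group, with a median deviation from the other 5 libraries of 0.20 on the log2 scale against 0.14 to 0.16 for each of the others, and results that rest on it are given below with and without it. The summed TPM (transcript abundance scaled to the same total in every library) of 8 hepatocyte markers was 101519 to 114997 with BI 456906 and 100038 to 112390 with semaglutide. The labels number each library but give no animal number. Each library was taken as a separate mouse, so that the tests measure the spread between animals.

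Of 15964 genes tested, 91 were called between the compounds, that is 0.57%, with 32 higher (0.2%) and 59 lower (0.37%) with BI 456906. A call required a log2 difference of at least 1 in size and an adjusted p of at most 0.05 (limma/voom, Benjamini-Hochberg over all genes tested), and differences are given throughout as BI 456906 minus semaglutide on the log2 scale of read counts. Without the fold requirement 386 genes passed (2.42%), 145 higher (0.908%) and 241 lower (1.51%). Protein-coding genes made up 71 of the 91, of which 24 were higher and 47 lower. In 44 of the 91 the 6 TPM values of one compound did not overlap the 6 of the other, against 1.69% of all genes tested. The 95% interval of the difference lay within 1 of 0 for 86.6% of the genes and within 0.5 of 0 for 62.2%. Against the shared vehicle libraries, 1068 genes were called with BI 456906 (6.69%) and 971 with semaglutide (6.08%). In all comparisons of bulk tissue given here, fewer cells of a type and less RNA per cell cannot be told apart.

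**Figure D1:**
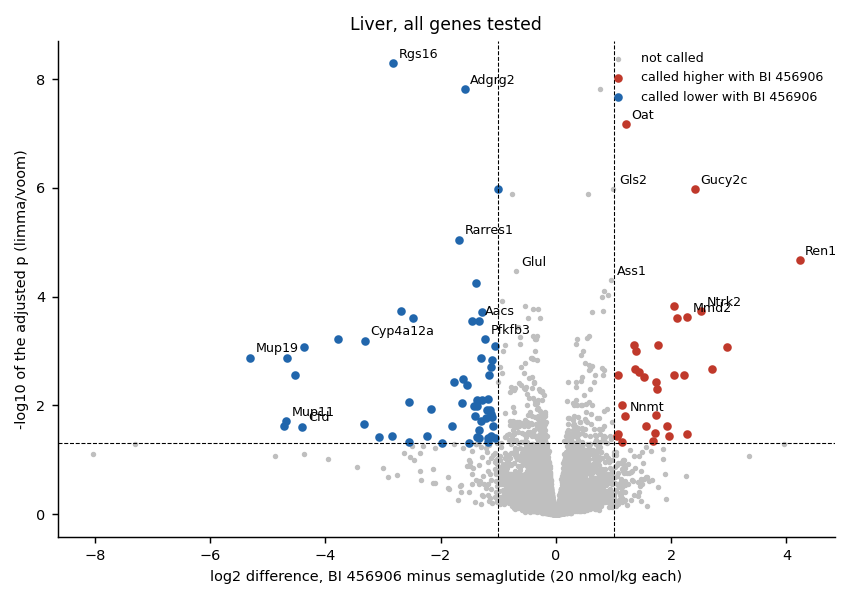
Log2 difference (BI 456906 minus semaglutide, horizontal axis) against −log10 of the adjusted p (limma/voom, vertical axis) for the 15964 genes tested in liver. Dashed lines mark the call thresholds. The 32 genes called higher are red and the 59 called lower are blue, with Rgs16 at the top on the left and Oat at the top of the called genes on the right.

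In the list of receptors, cAMP effectors and phosphodiesterases, Rgs16 and Arrdc3 were called, both lower with BI 456906. Adcy8, an adenylate cyclase outside that list, was called higher at low levels and is given below. Gcgr was expressed at 170 to 229 TPM (median 211) with BI 456906 and at 204 to 231 TPM (median 216) with semaglutide. The ranges overlapped, the log2 difference was -0.09 and its 95% interval ran from -0.23 to 0.05. Glp1r did not exceed 0.1 TPM in any of these libraries and was too low to be tested. Of 25 members of the list of receptors, cAMP effectors and phosphodiesterases that were tested, 2 were called, both lower, against 0.37% of all genes. The median of the list was -0.04 against 0.00427 over all genes. Crem (0.40, adjusted p = 0.0336) and Gnas (-0.15, adjusted p = 0.037, limma/voom) passed without the fold requirement, and these calls were lost on leaving out any of 7 and 9 of the 12 libraries, with adjusted p-values of up to 0.0965 and 0.108.

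Rgs16, a GTPase-activating protein that shortens signaling through Gi- and Gq-coupled receptors, had the smallest adjusted p of all genes. It was expressed at 13.3, 24.7 and 33.8 TPM (lowest, median, highest) with BI 456906, at 111, 157 and 213 TPM with semaglutide and at 32.7, 53.9 and 87.0 TPM with vehicle. The 2 compound groups did not overlap each other, semaglutide lay wholly above vehicle, and the BI 456906 and vehicle ranges met at their edge. The difference between the compounds was -2.83 (SE 0.26, adjusted p = 5.11e-09, limma/voom), a 7.09-fold difference. The log2 difference from vehicle was 1.45 with semaglutide (adjusted p = 2.73e-05) and -1.38 with BI 456906 (adjusted p = 2.76e-05, limma/voom). Arrdc3, an arrestin-domain protein involved in receptor trafficking, was expressed at a median of 9.68 TPM (5.22 to 18.3) with BI 456906 and 20.3 TPM (13.02 to 34.6) with semaglutide. The ranges overlapped, and the difference was -1.29 (SE 0.29, adjusted p = 0.00805, limma/voom). This call was lost on log2(TPM + 1) (-1.03, adjusted p = 0.0566) and on log2(TPM + 0.1) (-1.10, adjusted p = 0.0527, limma).

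Several genes of amino acid breakdown were higher with BI 456906. Of 33 tested, 5 passed the adjusted p threshold, all higher, against 0.908% of all genes tested. Of these 5, Oat was called, against 0.2% of all genes called higher. The median of the list was 0.16. Oat, encoding the mitochondrial ornithine aminotransferase, lies on chromosome 7 of GRCm38 from 132557478 to 132576398. It was expressed at 618, 768 and 874 TPM (lowest, median, highest) with BI 456906, at 256, 312 and 452 TPM with semaglutide, and at 381, 481 and 593 TPM with vehicle. No BI 456906 value reached down to the vehicle or the semaglutide range. The difference between the compounds was 1.22 (SE 0.13, adjusted p = 6.83e-08, limma/voom), composed of 0.56 above vehicle with BI 456906 (adjusted p = 0.000598) and -0.66 with semaglutide (adjusted p = 7.48e-05, limma/voom).

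Gls2, the liver-type glutaminase that releases ammonia from glutamine, stood just under the fold threshold. Its level was 310, 370.1 and 483 TPM with BI 456906 and 151, 175 and 254 TPM with semaglutide, against a vehicle median of 177 TPM. The compounds did not overlap, and they differed by 1.00 (SE 0.12, adjusted p = 1.06e-06, limma/voom). Semaglutide left Gls2 at a log2 difference of -0.10 from vehicle (adjusted p = 0.497, limma/voom). Agxt, alanine-glyoxylate aminotransferase, was higher by 0.81 (SE 0.13, adjusted p = 0.000185) and Hgd, homogentisate dioxygenase, by 0.34 (adjusted p = 0.00802, limma/voom). Got1, Sds and Tat did not pass the threshold. Got1, the cytosolic aspartate aminotransferase, was at 0.74 (95% interval 0.18 to 1.31, adjusted p = 0.17, limma/voom) and Sds, serine dehydratase, at 0.48 (-0.01 to 0.97, adjusted p = 0.361). Tat, tyrosine aminotransferase, was at 0.04 with an interval from -0.49 to 0.57, while each compound alone stood more than 2 above vehicle, at 2.13 for BI 456906 (adjusted p = 1.74e-08) and 2.09 for semaglutide (adjusted p = 5.34e-08, limma/voom).

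In the urea cycle and ammonia handling, 2 of 10 genes passed higher and 1 lower, against 0.908% and 1.51% of all genes. None was called, and the median was 0.09. Ass1, encoding argininosuccinate synthase, was expressed at 3929, 4649.7 and 5159 TPM with BI 456906 and at 1988, 2246 and 3339.8 TPM with semaglutide. Every BI 456906 value lay above every semaglutide value, and the vehicle median was 2066 TPM. The difference was 0.96 (SE 0.14, adjusted p = 5.00e-05, limma/voom). Windows of 100 bases shared with 1 other gene covered 38.9% of the Ass1 transcript, and its processed copy Gm5424 moved with it (0.90, adjusted p = 9.48e-05), so that the reads of the pair cannot be fully told apart. Slc25a15, the mitochondrial ornithine carrier, was higher by 0.52 (adjusted p = 0.00966, limma/voom). The other cycle enzymes did not pass, with Cps1 at 0.10 (95% interval -0.29 to 0.50), Otc at 0.05 (-0.15 to 0.24), Asl at 0.19 (-0.15 to 0.52) and Arg1 at 0.30 (-0.01 to 0.60).

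Glul, glutamine synthetase, which fixes ammonia in the pericentral hepatocytes, went the opposite way to Gls2. It was expressed at 355, 438 and 470.2 TPM with BI 456906 and at 592, 681 and 729 TPM with semaglutide. The 2 groups did not overlap, and the vehicle libraries held 647 to 862 TPM, all above those of BI 456906. The difference was -0.70 (SE 0.10, adjusted p = 3.43e-05, limma/voom).

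**Figure D2:**
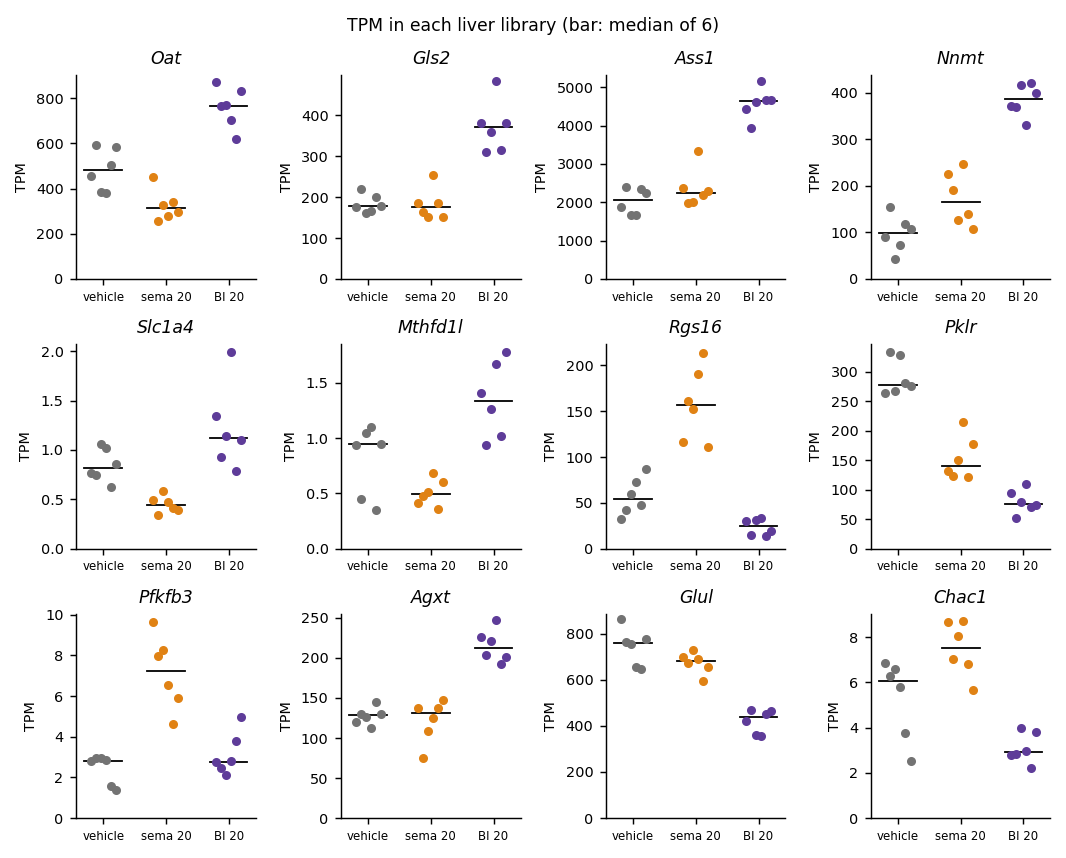
TPM (vertical axis, from 0) in each of the 6 liver libraries of the vehicle, semaglutide 20 nmol/kg and BI 456906 20 nmol/kg groups for 12 genes, with a bar at the median. In Oat, Gls2, Ass1, Agxt, Nnmt, Slc1a4 and Mthfd1l all BI 456906 points lie above all semaglutide points. In Rgs16, Pklr, Glul and Chac1 they all lie below.

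Of 18 amino acid transporters tested, 4 (Slc25a15 above among them) passed the adjusted p threshold, against 0.908% of all genes passing higher. All 4 were higher with BI 456906, and Slc1a4 was called. Slc1a4, a transporter of alanine, serine and cysteine, was a low transcript, at 0.79, 1.12 and 1.99 TPM with BI 456906 and 0.34, 0.44 and 0.58 TPM with semaglutide. The groups did not overlap, and vehicle lay between them at a median of 0.82 TPM. The difference was 1.36 (SE 0.25, adjusted p = 0.000791, limma/voom), of which -0.99 was the position of semaglutide against vehicle (adjusted p = 0.00159) and 0.36 that of BI 456906 (adjusted p = 0.163). Slc38a3, a glutamine transporter of periportal hepatocytes, was higher by 0.46 (adjusted p = 0.00301, limma/voom). Slc7a2, a cationic amino acid transporter, was higher by 0.68 (adjusted p = 0.0356), which was lost on leaving out any of BI 456906 libraries 61, 64, 65 and 66 or semaglutide libraries 75, 77 and 78 (0.62 to 0.70, adjusted p of at most 0.0878, limma/voom). Mthfd1l, the mitochondrial formate-producing enzyme of one-carbon metabolism, was expressed at 0.94, 1.34 and 1.78 TPM with BI 456906 and at 0.36, 0.50 and 0.68 TPM with semaglutide. All BI 456906 values were higher, by 1.36 (SE 0.27, adjusted p = 0.00215, limma/voom).

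The promoters of these genes were read on both strands for TGACG, the core of the cAMP response element, the sequence bound by CREB, which transmits a rise in cAMP to genes. Of 13 genes called higher that were named by rule, 8 had a promoter window of 250 bases before the start site in the RefSeq table (GRCm38.p6), and 2 of these, Slc1a4 and Mthfd1l, held the core. Of 22 such genes called lower, 19 had a window and 4 held it, among them Pfkfb3, and 17.8% of all 32851 windows held it. The full palindromic element, in 1.55% of all windows, was in none of these 8 and 19 genes with a window. The windows of Slc1a4 (chr11:20332714-20332963, minus strand), Mthfd1l (chr10:3972825-3973074, plus strand) and Pfkfb3 (chr2:11553930-11554179, minus strand) are shown because they carry the core, in capitals on whichever strand it was read, and that of Oat (chr7:132576399-132576648, minus strand) because Oat had the smallest adjusted p among genes called higher and its window holds none.
Slc1a4: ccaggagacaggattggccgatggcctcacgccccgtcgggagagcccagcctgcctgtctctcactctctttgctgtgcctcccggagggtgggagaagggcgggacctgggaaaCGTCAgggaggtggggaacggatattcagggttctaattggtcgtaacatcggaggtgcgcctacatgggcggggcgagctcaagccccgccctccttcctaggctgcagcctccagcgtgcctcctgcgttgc
Mthfd1l: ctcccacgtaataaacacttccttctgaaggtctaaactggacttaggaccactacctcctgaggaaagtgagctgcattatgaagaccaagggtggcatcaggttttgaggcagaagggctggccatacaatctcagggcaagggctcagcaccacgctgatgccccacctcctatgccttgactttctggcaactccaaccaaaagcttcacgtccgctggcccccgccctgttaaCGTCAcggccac
Pfkfb3: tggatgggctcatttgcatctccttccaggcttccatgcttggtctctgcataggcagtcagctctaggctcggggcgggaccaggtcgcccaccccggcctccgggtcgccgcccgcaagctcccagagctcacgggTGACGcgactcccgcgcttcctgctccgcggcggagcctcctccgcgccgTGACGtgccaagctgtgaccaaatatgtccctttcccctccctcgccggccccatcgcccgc
Oat: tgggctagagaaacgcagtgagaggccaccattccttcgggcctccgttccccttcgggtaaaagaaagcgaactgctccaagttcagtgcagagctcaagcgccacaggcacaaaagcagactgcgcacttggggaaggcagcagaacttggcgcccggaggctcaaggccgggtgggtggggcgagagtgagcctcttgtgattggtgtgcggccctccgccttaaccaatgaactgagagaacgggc
The capitals stand 134 to 130 bases before the start in Slc1a4, 12 to 8 bases before it in Mthfd1l, and at 112 to 108 and 62 to 58 bases in Pfkfb3. Another RefSeq window of Pfkfb3 (chr2:11502091-11502340, minus strand, sequence left out) held the core 6 to 2 bases before its start. A match of letters is not a measurement of binding, and genes higher and lower with BI 456906 both held them.

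Nnmt, nicotinamide N-methyltransferase, which uses S-adenosylmethionine to methylate nicotinamide, was higher with BI 456906 than with semaglutide at the same dose. It was expressed at 331, 386 and 419.8 TPM with BI 456906 and at 107, 165 and 248 TPM with semaglutide, with no overlap, while the vehicle libraries held 43.9 to 155 TPM. The difference was 1.19 (SE 0.29, 95% interval 0.61 to 1.78, adjusted p = 0.016, limma/voom), a 2.29-fold difference. Both compounds stood above vehicle, BI 456906 by 1.95 (adjusted p = 6.42e-07) and semaglutide by 0.76 (adjusted p = 0.0239, limma/voom). Of 16 genes of the methionine cycle and transsulfuration, 5 passed, all higher, against 0.908% of all genes. Nnmt was the member that was called, and the list median was 0.12. Mat1a, which makes S-adenosylmethionine, was higher by 0.53 (adjusted p = 0.0131), Gnmt, which consumes it, by 0.58 (adjusted p = 0.00225), Cbs by 0.58 (adjusted p = 0.000521) and Cth by 0.60 (adjusted p = 0.00497, limma/voom), the last pair being the enzymes that lead from homocysteine to cysteine. For Cbs the 6 BI 456906 values (303 to 379 TPM) lay above the 6 of semaglutide (212 to 264 TPM), and both groups lay above vehicle (123 to 162 TPM). Nampt, which salvages nicotinamide into NAD, was lower by a log2 difference of -0.39 (SE 0.08, adjusted p = 0.00142, limma/voom), with 18.95 to 22.8 TPM against 24.5 to 32.5 TPM. Besides Nnmt and Nampt, 16 of the 18 genes tested for NAD synthesis and nicotinamide disposal did not pass. Of all genes tested, 2.42% passed.

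Of 19 genes of glycolysis and glycogen, 6 passed, all lower, against 1.51% of all genes. Of these 6, 2 were called, against 0.37% of all genes called lower, and the list median was -0.26. Pklr, the liver pyruvate kinase at the last step of glycolysis, was expressed at 51.5, 76.3 and 109.6 TPM with BI 456906, at 122, 141 and 214 TPM with semaglutide and at 263, 278 and 333 TPM with vehicle. The 3 groups did not overlap, so that both compounds lay under vehicle and BI 456906 under semaglutide. The difference between the compounds was -1.05 (SE 0.19, adjusted p = 0.000822, limma/voom), just past the fold threshold, and it fell just short of it (-0.93, -0.94 and -0.99) without BI 456906 library 62, semaglutide library 76 or semaglutide library 78. Pfkfb3, which makes the fructose 2,6-bisphosphate that drives glycolysis, was expressed at 2.14, 2.78 and 4.95 TPM with BI 456906 and at 4.64, 7.25 and 9.64 TPM with semaglutide. One pair of libraries overlapped, BI 456906 library 66 and semaglutide library 77, and vehicle was at a median of 2.83 TPM. The difference was -1.22 (SE 0.22, adjusted p = 0.000607, limma/voom), made up of 1.45 above vehicle with semaglutide (adjusted p = 2.26e-06) and 0.23 with BI 456906 (adjusted p = 0.481).

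Khk (ketohexokinase, -0.48, adjusted p = 0.0309), Pygl (glycogen phosphorylase, -0.42, adjusted p = 0.0367) and Gbe1 (glycogen branching enzyme, -0.41, adjusted p = 0.016, limma/voom) passed below the fold threshold. Each lost its call on leaving out single libraries, with adjusted p-values up to 0.102 for Khk (5 of 12 libraries), 0.129 for Pygl (5 of 12) and 0.0615 for Gbe1 (3 of 12). In gluconeogenesis 2 of 16 genes passed, against 2.42% of all genes, and none was called. Of these, Fbp1, fructose-1,6-bisphosphatase, passed higher (0.37, adjusted p = 0.0101, limma/voom) and Pcx, pyruvate carboxylase, lower (-0.28, adjusted p = 0.0358), the latter lost without any of 8 libraries (adjusted p up to 0.126). Pck1, encoding phosphoenolpyruvate carboxykinase, had a median of 2937 TPM with BI 456906 and 2629 TPM with semaglutide against 933 TPM with vehicle, and the compounds differed by -0.03 (95% interval -0.38 to 0.31). G6pc, glucose-6-phosphatase, differed by -0.08 (-0.42 to 0.27) and Ppargc1a, the coactivator PGC-1alpha, by 0.19 (-0.06 to 0.44).

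The carbohydrate response element (ChoRE), bound by the glucose-sensing factor ChREBP, is known from the Pklr promoter, and its pair of E-box-like motifs separated by 5 bases was looked for on both strands of the same windows. It was found in 0.0974% of all windows and, among the 8 genes called higher and 19 called lower whose windows were searched, in Pklr. The window before the downstream of the 2 RefSeq starts of Pklr (chr3:89136373-89136622, GRCm38.p6, plus strand) is shown with the match in capitals, 170 to 154 bases before the start.
Pklr: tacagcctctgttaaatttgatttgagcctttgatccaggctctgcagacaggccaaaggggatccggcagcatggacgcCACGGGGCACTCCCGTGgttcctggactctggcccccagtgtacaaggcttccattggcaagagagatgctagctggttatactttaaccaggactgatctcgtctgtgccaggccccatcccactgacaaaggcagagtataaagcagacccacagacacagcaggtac
No match was found in the windows of Rgs16 and Pfkfb3, which says only that these letters are not within 250 bases of their starts.

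Of 22 genes of the ATF4 response and serine synthesis, 2 passed higher and 3 lower, against 0.908% and 1.51% of all genes. Chac1, which breaks down glutathione, was expressed at 2.20, 2.92 and 3.99 TPM with BI 456906 and at 5.65, 7.54 and 8.72 TPM with semaglutide. The groups did not overlap, and the difference was -1.28 (SE 0.21, adjusted p = 0.000196, limma/voom). Trib3, a pseudokinase induced by ATF4, was lower by a log2 difference of -0.71 (adjusted p = 0.00472), and Sesn2, a leucine sensor, by -0.56 (adjusted p = 0.0237), which was lost without BI 456906 library 62 (-0.48, adjusted p = 0.0799) or 65 (-0.48, adjusted p = 0.0626). Atf5 was higher by 0.44 (adjusted p = 0.00362) and Ddit3, encoding CHOP, by 0.57 (adjusted p = 0.00853, limma/voom). The list thus held members in both directions, with a median of 0.05. Fgf21, the hepatokine often used as a marker of glucagon receptor activity, was at 20.5, 44.1 and 66.5 TPM with BI 456906 and 20.8, 32.6 and 41.8 TPM with semaglutide. These ranges overlapped, and the difference was 0.48 (95% interval 0.02 to 0.95, adjusted p = 0.312, limma/voom).

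Few lipid and sterol genes passed. None of 25 genes of cholesterol synthesis and uptake and none of 30 of fatty acid oxidation, ketogenesis and PPARalpha targets passed the adjusted p threshold, with medians of -0.21 and 0.02. Their intervals lay within 1 of 0 in 22 and 24 genes. Cpt1a, the gate of mitochondrial fatty acid entry, differed by 0.00021 (95% interval -0.17 to 0.17). Of 21 genes of de novo lipogenesis 3 passed, all lower, against 1.51% of all genes, and the list median was -0.33. The 3 were Pklr, Acacb (-0.74, adjusted p = 0.0107) and Me1 (-0.50, adjusted p = 0.0101, limma/voom). Acacb, the acetyl-CoA carboxylase that makes the malonyl-CoA restraining Cpt1a, had 19.5 to 36.4 TPM with BI 456906 and 36.8 to 48.6 TPM with semaglutide, and without BI 456906 library 61 its adjusted p was 0.0545 (-0.65). Fasn was at -0.55 (95% interval -0.91 to -0.19, adjusted p = 0.0889) and passed without semaglutide library 73 (-0.67, adjusted p = 0.0368, limma/voom). Of the others, Scd1 was at -0.34 (-1.03 to 0.35) and Srebf1 at -0.21 (-0.64 to 0.22). Aacs, acetoacetyl-CoA synthetase, which returns ketone bodies to lipid synthesis and was picked after its values were seen, was at 9.30, 11.0 and 17.9 TPM with BI 456906 against 24.4, 27.9 and 48.5 TPM with semaglutide. The groups did not overlap, and the difference was -1.33 (SE 0.22, adjusted p = 0.000279, limma/voom).

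Of 27 genes of bile acid synthesis, transport and FXR signaling 2 passed, both lower, against 1.51% of all genes. Cyp27a1, sterol 27-hydroxylase of the alternative bile acid pathway, was expressed at 367, 372 and 503 TPM with BI 456906 and at 582, 627 and 686 TPM with semaglutide. No value was shared between the ranges, and vehicle (393 to 493 TPM) overlapped with BI 456906. The difference was -0.66 (SE 0.11, adjusted p = 0.00037, limma/voom). Nr1h4, encoding FXR, was lower by a log2 difference of -0.23 (adjusted p = 0.00805). Cyp7a1, the rate-limiting enzyme of the classical pathway, varied widely within both groups (24.5 to 104 and 30.5 to 96.7 TPM), and its difference of -0.26 had an interval from -0.97 to 0.45. Cyp8b1, which sets the share of cholic acid, was at -0.41 (95% interval -0.70 to -0.12, adjusted p = 0.126, limma/voom).

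The 4 largest fold differences of all genes tested were in the major urinary proteins (Mup), 1 of them called, Mup19. These are a clustered family of pheromone carriers secreted by the male liver. The annotation lists 48 Mup genes and pseudogenes on chromosome 4 of GRCm38 between 59956804 and 62150863, of which 22 were tested. Of these 10 were called lower and 0 higher, against 0.37% of all genes called lower, and the median of the 22 was -3.19. The calls comprised 6 of the 17 protein-coding genes and 4 of the 5 pseudogenes. Of these pseudogenes, Mup-ps7, Mup-ps12 and Mup-ps14 had mean levels of 0.138, 0.252 and 0.097 TPM with semaglutide. Their calls were lost on log2(TPM + 1) (adjusted p = 0.344, 0.549 and 0.519, limma). The call of Mup-ps7 was also lost on leaving out any of 10 libraries, and that of Mup-ps12 without BI 456906 library 61 or 62. Summed over the family, the TPM was 7357 to 14250 with BI 456906 (median 8663), 14142 to 28803 with semaglutide (median 17706) and 8733 to 19209 with vehicle (median 12810.0). The ranges of the compounds touched, the highest BI 456906 library lying just above the lowest semaglutide library, and the medians lay on either side of vehicle.

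Mup19 was expressed at 15.5, 44 and 90.6 TPM with BI 456906, at 901, 1061 and 1984 TPM with semaglutide and at 150, 284 and 1042 TPM with vehicle. The compounds did not overlap, and the vehicle libraries lay above BI 456906 and overlapped semaglutide. The difference was -5.30 (SE 1.00, adjusted p = 0.00132, limma/voom). Mup9 followed the same order at lower levels, with 1.39, 2.47 and 5.49 TPM against 20.0, 28.5 and 65.6 TPM and a difference of -4.67 (SE 0.89, adjusted p = 0.00136). Mup11 differed by -4.68 (SE 1.16, adjusted p = 0.0196, limma/voom) and missed the threshold without BI 456906 library 61 (-4.19, adjusted p = 0.0545). Its median reads were 211 with BI 456906 and 4129 with semaglutide, but its mean TPM lay closer together, at 361.4 and 1034.5. The smallest difference of Mup11 under any alternative run was -1.53. Mup16 (-3.07, adjusted p = 0.0377) and Mup22 (-1.06, adjusted p = 0.0407) were each lost on leaving out any of 7 libraries, with adjusted p-values of up to 0.101 and 0.132. Mup15 and Mup17 had the largest differences, -8.03 (SE 2.51) and -7.30 (SE 2.11), and no overlap in TPM, yet adjusted p-values of 0.0781 and 0.0526 in limma/voom, against 1.17e-05 and 8.83e-06 in edgeR's quasi-likelihood test on the recovered reads. Mup17 passed in limma/voom without semaglutide library 74 (-7.52, adjusted p = 0.0468). The abundant Mup3 (3677 to 6715 against 5683 to 9965 TPM) and Mup20 (1343 to 4068 against 3451 to 10196 TPM) overlapped and did not pass, at -0.62 and -1.18 (adjusted p = 0.21 and 0.112, limma/voom). Mup21 was at -1.04 (adjusted p = 0.102) and at -1.25 without BI 456906 library 65 (adjusted p = 0.0371, limma/voom).

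The Mup copies are nearly identical, and this limits which copy a read can be given to. For Mup19 and Mup22, 100% of the 100-base windows of the transcript were also found in another gene, and for Mup9 and Mup11 85.9% and 83.5%. The read table held a median of 614 reads of Mup19 per semaglutide library, while its TPM there was at least 901 in every library, so that the 2 deposited measures do not weigh the copies alike. For Mup18 they disagreed in outcome. The read-based difference was -4.52 (adjusted p = 0.00278), and the difference on log2(TPM + 1) was -0.22 (adjusted p = 0.907, limma).

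Among other male-biased liver genes, Cyp4a12a and Cyp2d9 were lower with BI 456906. Cyp4a12a, an arachidonic acid hydroxylase that is androgen- and growth hormone-dependent, was at 1.73, 6.15 and 12.8 TPM with BI 456906 and at 29.7, 44.02 and 92.6 TPM with semaglutide. Semaglutide overlapped vehicle (40.7 to 69.2 TPM), and BI 456906 lay under both. The difference was -3.31 (SE 0.59, adjusted p = 0.000648, limma/voom). Windows shared with Cyp4a12b covered 35.8% of the transcript, and Cyp4a12b itself was at -1.65 (adjusted p = 0.398). Cyp2d9 was at 302, 363 and 561 TPM against 602, 814 and 1012 TPM, a difference of -1.12 (SE 0.21, adjusted p = 0.00148, limma/voom). In all, 3 of 20 male-biased genes tested were called, the third being Mup11, all lower, against 0.37% of all genes called lower. The list median was -1.08. This list includes Mup3, Mup7, Mup11, Mup20 and Mup21, so that it shares genes with the Mup family above. Without BI 456906 library 65 the count was 5 of 20, with 112 of all 16108 genes called in that fit.

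Female-biased genes were called in both directions. The list median was 0.48, and 0.55 without BI 456906 library 65. Of 15 tested, Cyp17a1 was called higher (1.05, adjusted p = 0.0371) and Cyp2b10 lower (-2.84, adjusted p = 0.0375, limma/voom). Over all genes, 0.2% were called higher and 0.37% lower. Cyp17a1, the 17alpha-hydroxylase of steroid synthesis, had overlapping ranges (80.8 to 176 and 36.5 to 92.9 TPM) and lost its call on leaving out any of BI 456906 libraries 62, 64, 65 and 66 or semaglutide libraries 73, 75, 76 and 78 (0.95 to 1.06, adjusted p up to 0.101). Cyp2b10, a drug-metabolizing enzyme induced through CAR, was at 1.36, 2.83 and 11.5 TPM against 11.7, 20.4 and 106 TPM, the highest value being semaglutide library 76. Its call was lost without any of BI 456906 libraries 61, 62, 63, 64 and 66 or semaglutide libraries 74, 75 and 76 (-3.18 to -2.41, adjusted p up to 0.102). Cyp2a4, a female-biased steroid hydroxylase, had a log2 difference of 3.97 (SE 1.14, adjusted p = 0.0516, limma/voom).

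BI 456906 library 65 separated from its group in these genes. It held 8.93 TPM of Hsd3b5, a male-biased steroid dehydrogenase, against 0.11 to 0.41 TPM in the other 5 libraries of the group and 4 to 37.9 TPM with semaglutide. It likewise held 54.2 TPM of the pseudogene Serpina4-ps1 (0.49 to 4.41 TPM in the others), 75.04 TPM of Selenbp2 (6.68 to 10.3 TPM) and the lowest Cyp2a4 level of its group, 3.35 TPM. Without it the difference was 4.66 for Cyp2a4 (adjusted p = 0.00679), -2.85 for Selenbp2 (adjusted p = 0.0229), -5.55 for Serpina4-ps1 (adjusted p = 0.0287) and -5.25 for Hsd3b5 (adjusted p = 0.104, limma/voom), against 3.97, -2.30 (adjusted p = 0.0558), -4.71 (adjusted p = 0.0237) and -4.37 (adjusted p = 0.08) with it. Serpina4-ps1 was lost without BI 456906 library 61, 63 or 64 or semaglutide library 76 (adjusted p up to 0.0614). Socs2, a growth hormone target, moved from -1.30 (adjusted p = 0.0576) to -1.55 (adjusted p = 0.0218). Selenbp2 also passed without semaglutide library 74 (-2.69, adjusted p = 0.0192) and Socs2 without semaglutide library 78 (-1.49, adjusted p = 0.0328, limma/voom). With the library in, none of 17 genes of the growth hormone, insulin and IGF axis passed, and Igf1 was at 0.13 (95% interval -0.14 to 0.40). These genes other than Igf1 were picked after their values were seen.

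**Figure D3:**
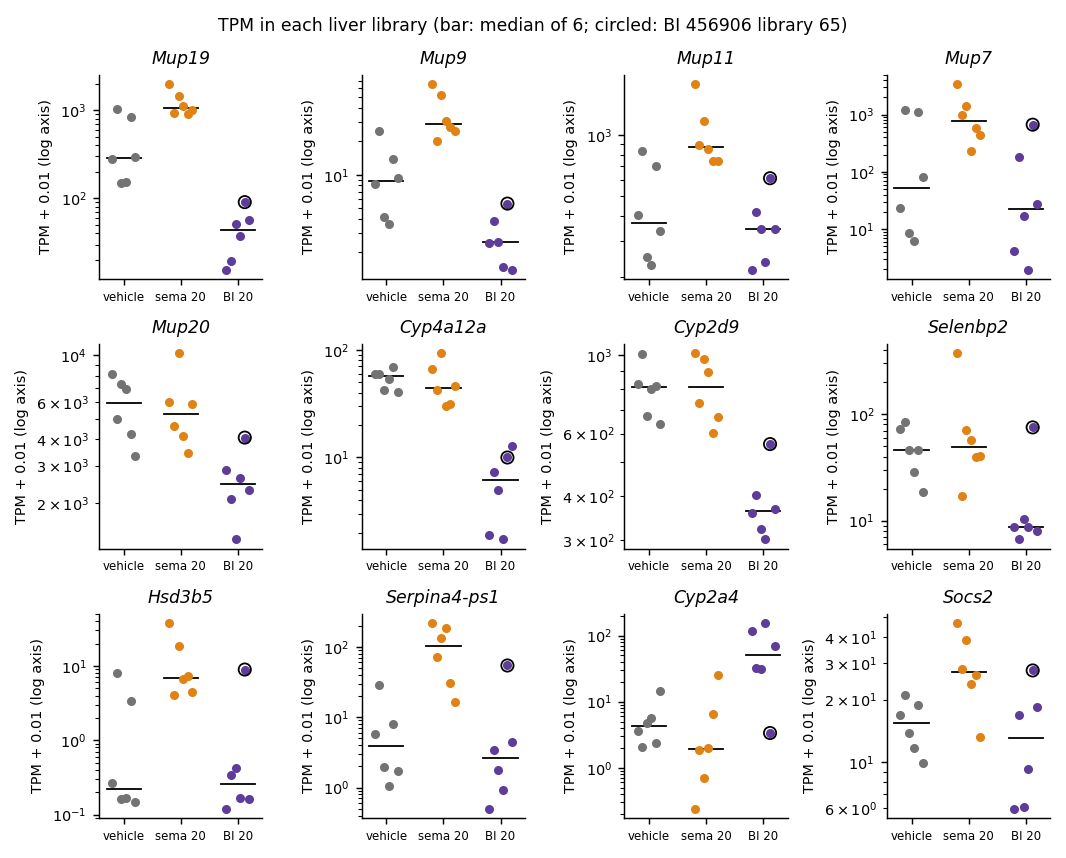
TPM + 0.01 on a log axis in each of the 6 liver libraries of vehicle, semaglutide 20 nmol/kg and BI 456906 20 nmol/kg for 12 sex-biased or growth hormone-responsive genes, with a bar at the median. The circled point is BI 456906 library 65, which lies with the semaglutide points in Hsd3b5, Serpina4-ps1, Selenbp2 and Cyp2a4 but with its own group in Mup19 and Cyp4a12a.

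Of 21 genes of the acute phase, iron and hepcidin, 5 passed higher and 1 lower, against 0.908% and 1.51% of all genes. The list median was 0.23. Among the 5, Itih3 (0.37, adjusted p = 0.049) and Itih4 (0.50, adjusted p = 0.0358, limma/voom) passed narrowly. They were lost on leaving out any of 10 and any of 7 libraries, with adjusted p-values of up to 0.144 and 0.135. Hpx, hemopexin, was higher by 0.62 (SE 0.10, adjusted p = 0.000196) and Hp, haptoglobin, by 0.54 (SE 0.09, adjusted p = 0.000574, limma/voom), and in both the 6 BI 456906 values lay above the 6 of semaglutide. For Hpx these were 3601 to 6038 against 2698 to 3251 TPM. Hamp2, a copy of the hepcidin gene, was at 127, 435 and 1237 TPM against 24.6, 97.2 and 195 TPM. The lowest BI 456906 value, from library 65, fell within the semaglutide range. The difference was 2.28 (SE 0.61, adjusted p = 0.0343, limma/voom), and it was lost without BI 456906 library 61, 63 or 64 or semaglutide library 73, 74 or 75 (1.94 to 2.24, adjusted p up to 0.103). Hamp itself, which encodes the hepcidin that blocks iron release, was at 0.21 with an interval from -0.63 to 1.04. Orm3 was called lower (-1.97, adjusted p = 0.0488), a call lost on leaving out any library other than semaglutide library 74, with adjusted p-values of up to 0.117, while Orm1 and Orm2 were at 0.14 and 0.88 (adjusted p = 0.758 and 0.408, limma/voom).

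Cfd, the complement protease adipsin, was listed at 0 to 0.08 TPM with BI 456906, 0.13 to 2.72 TPM with semaglutide and 5.44 to 18.7 TPM with vehicle. The 3 groups did not overlap, and both compounds were far under vehicle. The compounds differed by -4.40 (SE 1.13, adjusted p = 0.0246, limma/voom), a call that was lost without BI 456906 library 61, 62, 64 or 65 or semaglutide library 75 (-4.51 to -4.06, adjusted p up to 0.0908). Cfd is also a marker of adipocytes, which are not part of the liver parenchyma. The defining adipocyte markers Adipoq, Plin1 and Lep reached at most 0.17, 0.15 and 0.01 TPM in these 12 libraries. The summed TPM of the 6 adipocyte markers, which include the hepatocyte-expressed Pck1 and Car3, was 2238 to 4021 with BI 456906 and 3252 to 4169 with semaglutide.

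Among further genes called higher with groups that did not overlap were Ntrk2, the receptor of brain-derived neurotrophic factor (2.52, SE 0.41, adjusted p = 0.000185), Mmd2 (2.28, SE 0.38, adjusted p = 0.000242), the alpha-tubulin Tuba8 (2.09, SE 0.35, adjusted p = 0.000247), Ttyh1, a membrane protein of the tweety family (1.77, adjusted p = 0.000791), and Gnat1, the rod transducin subunit (1.52, adjusted p = 0.00308, limma/voom). Their levels were low, with medians of 1.16 TPM for Ntrk2, 4.15 TPM for Mmd2 and 3.34 TPM for Tuba8 with BI 456906, against 0.23, 0.74 and 0.90 TPM with semaglutide. They did not reach their difference in the same way. Ntrk2 and Mmd2 were lower with semaglutide than with vehicle (-2.10 and -1.79, adjusted p = 9.14e-05 and 0.000271), with BI 456906 at 0.42 and 0.49 (adjusted p = 0.233 and 0.152). Tuba8, Ttyh1 and Gnat1 were higher with BI 456906 than with vehicle (1.42, 2.53 and 2.49, adjusted p = 0.000262, 5.77e-07 and 9.52e-07, limma/voom). The predicted gene Gm379 (2.22, adjusted p = 0.00282) and the pseudogene Gm15375 (1.76, adjusted p = 0.00507, limma/voom) were also called. Ren1, encoding renin, had a difference of 4.23 (SE 0.59, adjusted p = 2.17e-05, limma/voom), at 0.27 to 0.53 TPM against 0 to 0.1 TPM. Gucy2c, the guanylin receptor, was at 0.43 to 0.80 against 0.08 to 0.13 TPM (2.41, SE 0.29, adjusted p = 1.06e-06), and Adcy8, an adenylate cyclase, at 0.07 to 0.17 against 0 to 0.02 TPM (2.96, adjusted p = 0.000856, limma/voom). Ren1, Gucy2c and Adcy8 lie under 1 TPM and were picked after their values were seen.

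Among further genes called lower without overlap, Adgrg2, an orphan adhesion receptor, was at 0.54, 0.83 and 1.48 TPM with BI 456906 and 1.88, 2.13 and 2.74 TPM with semaglutide, a difference of -1.58 (SE 0.16, adjusted p = 1.53e-08, limma/voom). Vehicle lay between, at 1.08 to 1.70 TPM. Rarres1, a retinoid-responsive carboxypeptidase inhibitor, was at a median of 15.5 TPM against 56.9 TPM, with vehicle at 87.6 TPM, and differed by -1.67 (SE 0.23, adjusted p = 8.96e-06). The extracellular matrix genes Omd (osteomodulin, -1.38, adjusted p = 5.58e-05), Col27a1 (a fibrillar collagen, -1.45, adjusted p = 0.000279), Cnmd (chondromodulin, -1.55, adjusted p = 0.00422) and Gpc1 (a glypican, -1.01, adjusted p = 1.06e-06, limma/voom) were lower as well. Of the 11 stellate cell and fibroblast markers 0 passed, with summed levels of 153 to 278 TPM against 154 to 238 TPM. Gpc1 fell short of the fold threshold without BI 456906 library 65 (-0.93) or semaglutide library 75 (-0.96) or 76 (-0.97). Depp1, a FOXO target, was at -1.41 (adjusted p = 0.016) and was lost without semaglutide library 75 (-1.30, adjusted p = 0.0514) or 77 (-1.22, adjusted p = 0.0585).

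**Figure D4:**
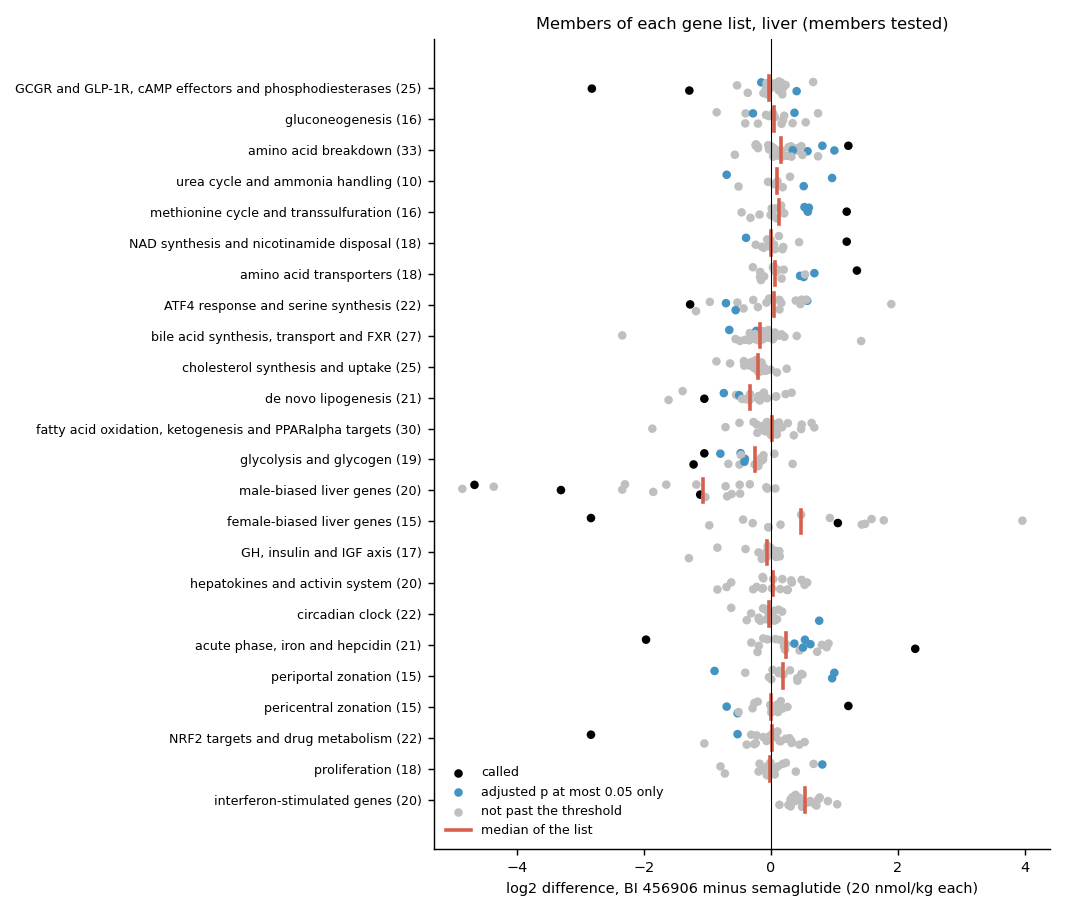
Log2 difference (BI 456906 minus semaglutide, horizontal axis) of each tested member of the 24 pathway lists, 1 row per list with the number of members tested in parentheses. Black points were called, blue points passed the adjusted p alone, grey points did not pass, and the red bar is the median of the list. The male-biased genes have the lowest median (-1.08) and the interferon-stimulated genes the highest (0.53).

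The remaining lists held few or no differences. Over all genes, 0.908% passed higher and 1.51% lower. Of 22 circadian genes only Noct, a NADP(H) phosphatase of the clock output, passed (0.76, adjusted p = 0.0481), which was lost without any of 8 libraries (adjusted p up to 0.113). Per1 was at 0.02 with an interval from -0.35 to 0.40. Of 18 proliferation genes only Ung, uracil-DNA glycosylase, passed, at 7.13 to 10.6 against 3.44 to 6.97 TPM (0.81, SE 0.16, adjusted p = 0.00278, limma/voom). Of 20 hepatokines only Ahsg, fetuin-A, passed (0.26, adjusted p = 0.0396), lost without any of 9 libraries (adjusted p up to 0.144). None of 20 interferon-stimulated genes passed, although all 20 differences were above 0, from 0.13 to 1.04 with a median of 0.53. Their summed TPM was 135 to 342 with BI 456906 and 120.0 to 158 with semaglutide, and vehicle, at 122 to 277 TPM, overlapped both. Without BI 456906 library 65, 2 of the 20 passed and 1 was called, with 112 of all 16108 genes called in that fit. Ifit1, an RNA-binding effector of the interferon response, had the largest difference (1.04, 95% interval 0.39 to 1.70, adjusted p = 0.0736, limma/voom). It was called without BI 456906 library 65 (1.21, adjusted p = 0.0268) or 66 (1.17, adjusted p = 0.0432, limma/voom), and in DESeq2 (1.08, adjusted p = 0.0392).

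Periportal and pericentral genes mark the ends of the liver lobule. The summed TPM of 15 periportal genes was 10231 to 12840 with BI 456906, 8102 to 10128 with semaglutide and 6400 to 7824 with vehicle. That of 15 pericentral genes was 7167 to 9869 with BI 456906, 9962 to 11670 with semaglutide and 9001 to 11654 with vehicle. In both sums the compounds did not overlap, BI 456906 being above semaglutide in the periportal and under it in the pericentral sum, and abundant members such as Ass1 and Cyp2e1 weigh most in them. Gene by gene, of 15 periportal genes 2 passed higher (Gls2 and Ass1) and 1 lower (Cyp2f2, -0.89, adjusted p = 0.000791). Of 15 pericentral genes 1 passed higher (Oat) and 2 lower (Glul and Cyp2e1, -0.53, adjusted p = 0.00498, limma/voom). Over all genes, 0.908% passed higher and 1.51% lower. Apart from the adipocyte marker Cfd, no marker of another cell type was called. None passed among 12 Kupffer cell and macrophage, 8 lipid-associated macrophage, 7 sinusoidal endothelial, 6 cholangiocyte, 8 T and NK cell, 6 B cell, 3 neutrophil and 5 erythroid markers tested. The summed Kupffer cell markers were 287 to 574 TPM with BI 456906 and 320.0 to 546 TPM with semaglutide, and the sinusoidal endothelial markers 231 to 272 and 250 to 267 TPM.

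Pck1, Ppargc1a, Igfbp2 and Per1 were called against vehicle with each compound and had an interval of the equal-dose difference within 0.5 of 0. Igfbp2, an insulin-like growth factor binding protein, was at a median of 614 TPM with BI 456906, 675 TPM with semaglutide and 275 TPM with vehicle, and the compounds differed by -0.08 (95% interval -0.43 to 0.27). Igfbp1, in contrast, had an interval from -1.51 to -0.18 around -0.85 (adjusted p = 0.184, limma/voom), which neither passes nor excludes a difference of 1.

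**Figure D5:**
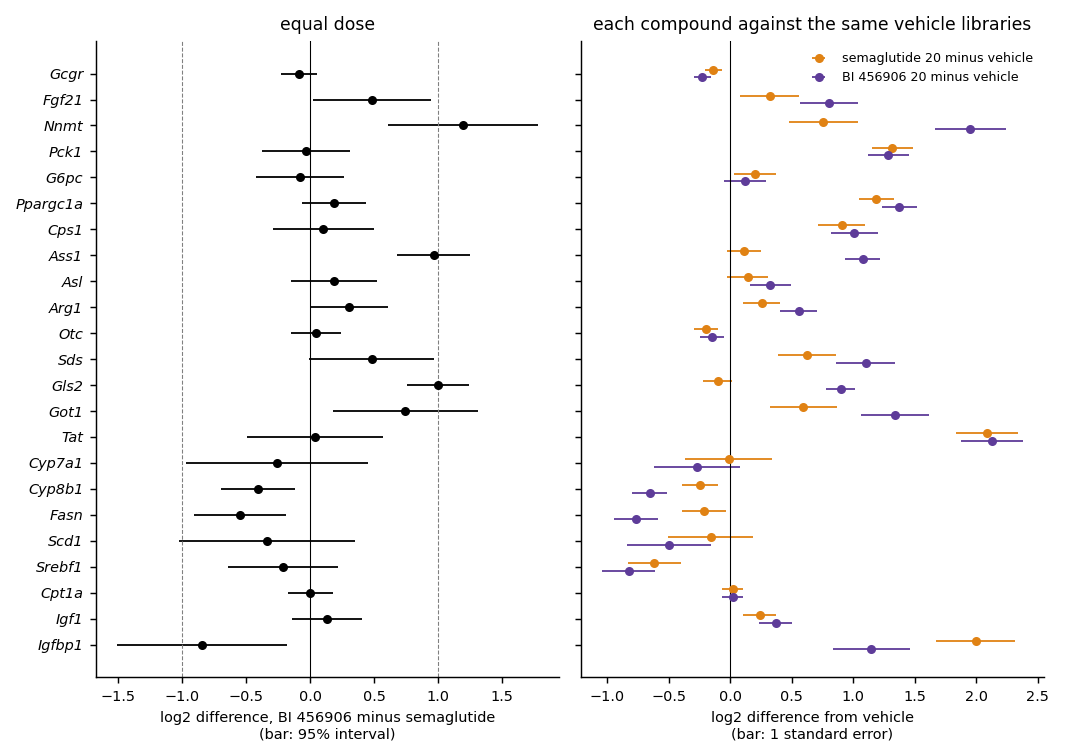
Left, log2 difference between BI 456906 and semaglutide at 20 nmol/kg with its 95% interval for 23 genes of glucagon, amino acid, glucose and lipid metabolism, with dashed lines at 1 and -1. Right, the log2 difference of each compound from the same 6 vehicle libraries with 1 standard error. Pck1, Tat and Ppargc1a lie far from vehicle with both compounds and near 0 on the left, while Ass1 and Gls2 lie 1.08 and 0.90 above vehicle with BI 456906 and 0.11 above and -0.10 from it with semaglutide.

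At the fold threshold, the genes just inside among those passing the adjusted p were Gpc1 (-1.01), Pklr (-1.05) and Cyp17a1 (1.05), and those just outside were Gls2 (0.9996), the kinase Map2k6 (-0.997) and the processed pseudogene Gm8326 (0.97), which was listed at no more than 0.02 TPM.

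In eWAT no gene was called between the compounds at the same dose. Of 18536 genes tested 0 were called (0%) and 0 passed the adjusted p alone, with 815 at an unadjusted p under 0.05 (limma/voom). edgeR's quasi-likelihood test also called 0, with 875 at an unadjusted p under 0.05, and DESeq2 called 2, Acta1 and Iglv3 (1.65 and 6.59, adjusted p = 0.0498 and 0.0318). The difference between the tissues was tested directly on 15297 genes kept in both, of which 14 were called (0.0915%), 6 with a higher (0.0392%) and 8 with a lower (0.0523%) liver difference, and 21 passed the adjusted p alone (0.137%). Oat had a liver minus eWAT difference of 1.18 (SE 0.15, adjusted p = 3.00e-07, limma/voom), standing at 0.02 in eWAT. Rgs16 (-3.01, SE 0.60, adjusted p = 0.0094), Pfkfb3 (-1.66, SE 0.34, adjusted p = 0.011), Tuba8 (2.22, adjusted p = 0.011), Ttyh1 (2.12, adjusted p = 0.0327), Omd (-1.68, adjusted p = 0.0369) and Ntrk2 (2.47, adjusted p = 0.0387, limma/voom) were also among them. For most liver genes the tissues could not be shown to differ. Ass1 had a liver minus eWAT difference of 0.40 (SE 0.64, adjusted p = 0.955), Nnmt of 0.97 (SE 0.37, adjusted p = 0.49) and Pklr of -0.17 (SE 1.56, adjusted p = 0.991, limma/voom).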

How the data were processed

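Liver RNA of male DIO mice was sequenced by the authors. The methods and the labels differ on library preparation and read type, so neither is given as fact here. The submitters' processing notes name STAR 2.5.2b, RSEM 1.3.0, featureCounts 1.5.1 and FastQC 0.11.5, with mm10 (GRCm38). The deposited read table holds, as signal values, reads per gene divided by 1 size factor per library: 100% of the values came out whole (tolerance 0.01), giving the counts used for depth, edgeR 4.0.16 and DESeq2 1.42.0. How the authors scaled it is not given in the sources used here. The deposited TPM table gave the levels of single libraries.

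Differences were fitted with limma 3.58.1 (R 4.3.3) by voom on the deposited values (TMM, prior count 0.5, filterByExpr), in 1 fit of 42 liver libraries and 7 groups, with Benjamini-Hochberg adjustment. The compounds form 1 pair. The eWAT libraries were fitted the same way, and the tissue difference in 1 fit of both. Scripts were tested on simulated data.

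Genes named were the up to 15 largest non-overlapping rises and falls at a mean of at least 1 TPM, called list members, up to 4 further members per list, fixed metabolic genes, genes within 0.5 of each other though called against vehicle with both compounds, 3 genes on either side of the fold threshold, and paralogs. The members and lists were chosen with earlier results of these data known. Alternatives covered scaling, filters, tools, pseudocounts, library weights and leaving out each library. Some items are not reported here.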

Additional observations from a re-analysis of the deposited data

Results flagged for a closer look

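Of 264 groups of 6 TPM values examined (the genes reported here, in both compounds), 31 (11.7%) held a highest value whose gap to the next, divided by the range, exceeded Dixon's 95% critical value for 6 samples. The rate of about 1 in 20 groups flagged by chance holds for independent, normally distributed values. The TPM were not transformed and the Mup copies share reads, so the 11.7% cannot be read against that rate. BI 456906 library 65 accounted for 9, semaglutide library 73 for 7 and semaglutide library 76 for 5.

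BI 456906 library 65 had the highest TPM of its group for Cyp27a1 (502.7), Cyp4a12b (10.87), Hsd3b5 (8.93), Mup12 (12.06), Mup21 (174.9), Mup7 (667.1), Selenbp2 (75.04), Serpina4-ps1 (54.21) and Ttyh1 (4.88). For Hsd3b5 the other 5 libraries reached 0.41 TPM and for Mup7 178.4 TPM. The remaining BI 456906 values were Cnmd (4.83) and Orm2 (79.98) in library 63, Hamp2 (1237.4) in library 64 and Mup-ps7 (0.17, the others being listed at 0) in library 61.

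Semaglutide library 73 was highest for Mup1 (167.7 TPM), Mup12 (66.35), Mup15 (546.0), Mup16 (54.18), Mup7 (3449.7), Orm1 (850.6) and Selenbp2 (371.8). Library 76 was highest for Ass1 (3339.8), Cyp2b10 (105.9), Gls2 (254.2), Sds (386.5) and Slc25a15 (156.9). Library 74 was highest for Cux2 (1.81) and Gm15375 (1.06), library 75 for Mup20 (10195.5), library 77 for Mup18 (18.14), and library 78 for Cyp2a4 (25.32) and Mup-ps14 (0.40).

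In 9 named genes the difference between the compounds differed between liver and eWAT at an adjusted p of at most 0.05 (limma/voom interaction). The liver minus eWAT difference was 1.184 for Oat, 2.473 for Ntrk2, 2.216 for Tuba8, 2.12 for Ttyh1 and 1.00 for Ung. It was -3.007 for Rgs16, -1.679 for Omd, -1.655 for Pfkfb3 and -0.8686 for Trib3.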

How the results depend on the processing

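The count of 91 called genes (32 higher, 59 lower) was 92 with RLE factors, 97 with library size alone, 104 without a filter, 85 on recovered reads, 93 in edgeR, 96 in DESeq2, 73 on log2(TPM + 0.1) and 81 in a fit of the 12 libraries alone. It was 52 (15 higher, 37 lower) with at least 10 counts in every liver library, where fewer genes were tested. It was 39 (10 and 29) on log2(TPM + 1) and 143 (51 and 92) with sample quality weights, which also raised the 386 genes passing the adjusted p to 853. For these 2 settings the cause was not tested. Of the 91, 78 were also called by edgeR, 74 by DESeq2 and 32 on log2(TPM + 1). Leaving out single libraries gave 65 to 112 called genes, 26 to 45 higher, 39 to 67 lower and 201 to 465 past the adjusted p. The lowest counts were 39 lower and 201 past the adjusted p without BI 456906 library 61, and 241 and 250 passed without semaglutide libraries 75 and 76. In eWAT, the edgeR and DESeq2 fits were chosen after seeing the data, and DESeq2 called 2 genes. Among the named genes, none past the adjusted p threshold changed direction under any alternative run, and other genes were not checked for this. Cps1, Cpt1a, G6pc, Igfbp2, Pck1, Per1 and Tat, which did not pass and lay near 0, changed sign in at least 1. No paired analysis was possible because the groups share no replicate numbers. Genes under about 1 TPM are limited by depth, and the Mup copies by shared sequence.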

Other observations

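Among called genes outside the lists, a few chosen after their values were seen had the following levels, and the TPM values of the compounds overlapped in each of them. Jun, an AP-1 transcription factor, differed by -1.31 (adjusted p = 0.0196, limma/voom), with mean levels of 21.8 TPM with BI 456906, 55.5 TPM with semaglutide and 23.3 TPM with vehicle. Il1r1, the interleukin-1 receptor, differed by -1.13 (adjusted p = 0.0367, limma/voom), with means of 16.9, 34.1 and 5.73 TPM in the same order. Eif4ebp3, a repressor of cap-dependent translation, differed by -1.63 (adjusted p = 0.00926, limma/voom), with means of 92.7, 240.8 and 145 TPM. In the other direction, Ugt1a9, a glucuronosyltransferase, was higher by 1.38 (adjusted p = 0.000997, limma/voom), with means of 75.8 TPM with BI 456906, 27.8 TPM with semaglutide and 53.3 TPM with vehicle. Ugt1a9 shares exons with other genes of its locus, which counting by gene may split.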
